A study of Mus musculus with 9 samples.

Results

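The genes described here make up the sterol and fatty acid synthesis pathway of mouse brain. The list held 35 genes, chosen by symbol and reached through the RefSeq accession of their probes, and 34 of them were matched among the 16355 named genes of the arrays. Idi1, isopentenyl diphosphate isomerase, was the listed gene that found no match, so its expression was not analysed here. The sterol arm counted 16 matched genes (5 of the mevalonate steps and 11 of the steps from squalene to cholesterol), the fatty acid arm 12 (6 that supply carbon or build the chain, 6 that elongate or desaturate it), and 6 regulators and sterol carriers stood outside both arms. Of the 34, 33 were well above background on all 9 arrays and Acaca, acetyl-CoA carboxylase, on 6.

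Cells make cholesterol from acetyl-CoA through mevalonate, farnesyl diphosphate, squalene and a series of sterol intermediates, and they make fatty acids from the same acetyl-CoA through malonyl-CoA, after which chains are elongated and desaturated. Both arms are controlled by the SREBP transcription factors, which the escort protein Scap carries from the endoplasmic reticulum to the Golgi when sterols are scarce and which the Insig proteins hold back when sterols are plentiful. The blood-brain barrier keeps lipoprotein cholesterol out, so brain cells synthesise their own, and oligodendrocytes use much of it for myelin.

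Wild-type male C57BL/6J mice aged 8 to 9 weeks were kept on 1 of 3 feeding regimens and were killed on day 8. The control group fed ad libitum (AD). The second group (RFR) alternated days of fasting with days of free refeeding, and the third (CR) received a fixed share of what the RFR mice ate, spread over both days. The labels do not say whether the RFR mice were in a fasting or a feeding period when they were killed. Amygdala, hypothalamus and prefrontal cortex were dissected from slices of brains perfused with saline, and RNA of 4 mice was pooled for each region and diet. Each region and diet therefore has 1 array, the spread between mice was not measured, and the 3 regions of a diet share 1 pool of mice.

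The 9 single-colour Agilent arrays had between 59.8% and 69.6% of their 43379 noncontrol spots well above background. They sat on 3 slides: all AD arrays and the RFR prefrontal cortex on slide 1, the CR amygdala alone on slide 3 and the other 4 on slide 2. Diet and slide are thus separate only in RFR against AD in prefrontal cortex and CR against RFR in hypothalamus. Levels are log2 values of the scanner's processed signal, scaled to each array's 75th percentile, so 1 unit is a doubling and levels of different genes, read by different probes, are not compared. Markers of the hypothalamus were highest on the hypothalamus arrays for 8 of 8 genes, 1 of which (Otp) was well above background on 0 arrays. Those of prefrontal cortex were highest on theirs for 7 of 7. For the amygdala this held for 4 of 6, 1 of which (Tfap2d) was well above background on 1 array only.

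**Figure D1:**
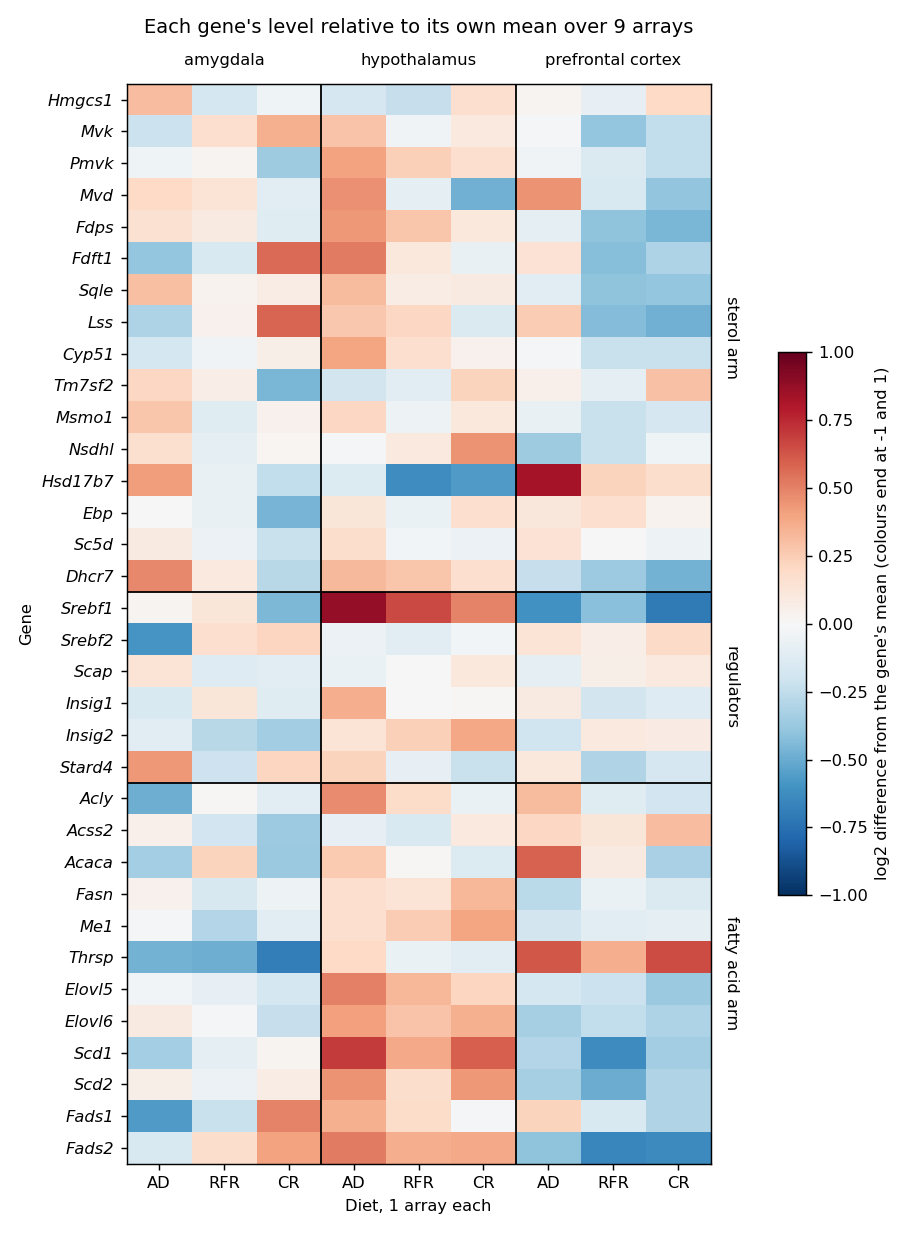
Level of each of the 34 genes on the 9 arrays, as the log2 difference from the gene's own mean, with genes grouped by arm and arrays by region and diet. The hypothalamus columns are red for the desaturases other than Fads1, for the elongases and for Srebf1. The prefrontal cortex columns are red for Hsd17b7 and Thrsp. The AD amygdala column stands apart from the AD columns of the other regions for Fdft1, Lss, Acly, Fads1 and Srebf2.

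The first comparison was between regions, over the 3 diets. Hypothalamus and prefrontal cortex differed most. Limma called 13 of the 34 genes higher in hypothalamus, 38.2% against a background of 26.7% of the 12625 genes fitted, and 2 genes lower, where 21.3% of all genes were lower. The 2 genes that were lower were Hsd17b7 and Thrsp. The median difference of the 34 genes was 0.29 log2 units, against 0.06 over all genes. In the fatty acid arm 7 of 12 genes were higher and 1 was lower, with a median of 0.39. In the sterol arm 5 of 16 were higher and 1 was lower, with a median of 0.33, and of the 6 regulators 1 was higher. The difference between the arms was not tested.

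Srebf1 encodes SREBP-1, the family member that drives fatty acid genes in particular, and it had the largest difference of all 34 genes between hypothalamus and prefrontal cortex. Its level in hypothalamus was 4.76 in AD, 4.54 in RFR and 4.38 in CR mice. In amygdala the same 3 diets gave 3.91, 4.00 and 3.43, and in prefrontal cortex 3.28, 3.46 and 3.17. All 3 hypothalamus arrays lay above every array of the other regions, and amygdala and prefrontal cortex overlapped only through the CR amygdala array. The hypothalamus was 2.39-fold above prefrontal cortex (1.26 ± 0.12 log2 units, SE, limma adjusted p = 0.00022) and 1.71-fold above amygdala (adjusted p = 0.0042). Both calls held in all 20 settings tried. Amygdala exceeded prefrontal cortex by 0.48 ± 0.12 log2 units (adjusted p = 0.035), a call that held in 8 of the 20.

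The stearoyl-CoA desaturases put the first double bond into saturated fatty acids. Scd1 stood at 2.95, 2.63 and 2.84 in the hypothalamus of AD, RFR and CR mice, at 1.91, 2.15 and 2.28 in amygdala and at 1.96, 1.62 and 1.90 in prefrontal cortex. Hypothalamus was above all other arrays, while amygdala and prefrontal cortex overlapped. The gene was 1.97-fold higher in hypothalamus than in prefrontal cortex (adjusted p = 0.0012, limma) and 1.62-fold higher than in amygdala (adjusted p = 0.010); the second call held in 18 of 20 settings. Scd2, the form that prevails in brain, had levels of 6.68, 6.40 and 6.66 in hypothalamus, 6.28, 6.17 and 6.30 in amygdala and 5.89, 5.73 and 5.92 in prefrontal cortex. Its regions did not overlap, and hypothalamus exceeded prefrontal cortex 1.66-fold (adjusted p = 0.00061).

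Elovl5 lengthens polyunsaturated chains, and Elovl6 lengthens saturated and monounsaturated ones. Elovl5 read 3.07, 2.90 and 2.79 in hypothalamus, 2.54, 2.49 and 2.39 in amygdala and 2.39, 2.35 and 2.20 in prefrontal cortex, in the order AD, RFR, CR. The hypothalamus arrays were the 3 highest, and the CR amygdala reached down to the AD prefrontal cortex. The difference between hypothalamus and prefrontal cortex was 0.60 ± 0.09 log2 units (adjusted p = 0.0015, limma), and that between amygdala and hypothalamus was -0.45 ± 0.09 (adjusted p = 0.011, past the threshold in 16 of 20 settings). Elovl6 gave a difference of 0.65 ± 0.11 between hypothalamus and prefrontal cortex. A second, dimmer probe of Elovl5 also read higher on all 3 hypothalamus arrays, at 1.02 to 1.06, than on any prefrontal cortex array, at 0.43 to 0.60.

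Fads2, the delta-6 desaturase of polyunsaturated fatty acids, was the lowest in prefrontal cortex. It measured 0.88, 0.63 and 0.65 there in AD, RFR and CR mice, 1.80, 1.65 and 1.66 in hypothalamus and 1.13, 1.46 and 1.69 in amygdala. No prefrontal cortex array reached either other region, and the CR amygdala lay within the range of the hypothalamus. Hypothalamus exceeded prefrontal cortex 1.98-fold (adjusted p = 0.0025, limma) and amygdala exceeded it 1.63-fold (adjusted p = 0.023, past the threshold in 13 of 20 settings). Fasn, fatty acid synthase, and Me1, the malic enzyme that supplies NADPH, were higher in hypothalamus than in prefrontal cortex by 0.37 ± 0.11 and 0.40 ± 0.11, and these calls held in 11 and 13 of 20 settings.

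Thrsp, a nuclear protein that rises with lipogenesis in liver, was the 1 gene of its arm called lower in hypothalamus than in prefrontal cortex. Its levels in prefrontal cortex were 1.44, 1.18 and 1.47 in AD, RFR and CR mice. In hypothalamus they were 1.02, 0.75 and 0.71, and in amygdala 0.35, 0.33 and 0.13. The 3 regions did not overlap. Prefrontal cortex was 2.14-fold above amygdala (adjusted p = 0.0011, limma, held in all 20 settings) and 1.46-fold above hypothalamus (adjusted p = 0.0092). The latter call held in 17 of 20 settings: it was lost without the CR prefrontal cortex array (adjusted p = 0.051) and without the CR or the RFR pool, where the adjusted p was at most 0.061.

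In the sterol arm the region differences were of mixed sign. Fdps, which makes farnesyl diphosphate, was 1.51-fold higher in hypothalamus than in prefrontal cortex (adjusted p = 0.0021, limma, in all 20 settings). Dhcr7, the reductase that makes cholesterol from 7-dehydrocholesterol, had levels of 3.18, 3.13 and 3.02 in the hypothalamus of AD, RFR and CR mice and 2.63, 2.49 and 2.38 in prefrontal cortex. In amygdala it spanned 3.34, 2.95 and 2.58, so that the AD array lay above the hypothalamus and the CR array within the range of prefrontal cortex. Hypothalamus exceeded prefrontal cortex 1.52-fold (adjusted p = 0.0081), a call that held in 19 of 20 settings. Sqle, squalene epoxidase, was 1.37-fold higher (adjusted p = 0.0045, also 19 of 20), and Pmvk and Nsdhl were higher by 0.41 ± 0.10 and 0.39 ± 0.13, past the threshold in 13 and 8 settings.

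Hsd17b7, the 3-ketosteroid reductase of the cholesterol pathway, was the 1 gene of the sterol arm called lower in hypothalamus than in prefrontal cortex. Prefrontal cortex gave 0.84, 0.22 and 0.18 in AD, RFR and CR mice, amygdala 0.42, -0.07 and -0.24 and hypothalamus -0.14, -0.62 and -0.57. The order prefrontal cortex, amygdala, hypothalamus was the same on each diet, although arrays of different diets overlapped across regions. Prefrontal cortex was 1.81-fold above hypothalamus (adjusted p = 0.00044, limma, in all 20 settings). Amygdala was 1.39-fold above hypothalamus (adjusted p = 0.012, 16 of 20 settings) and lower than prefrontal cortex by 0.38 ± 0.10 log2 units (adjusted p = 0.035, 7 of 20). A second probe of the gene gave the same order, with -0.73 to -0.40 in prefrontal cortex, -1.22 to -0.58 in amygdala and -1.48 to -1.28 in hypothalamus.

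**Figure D2:**
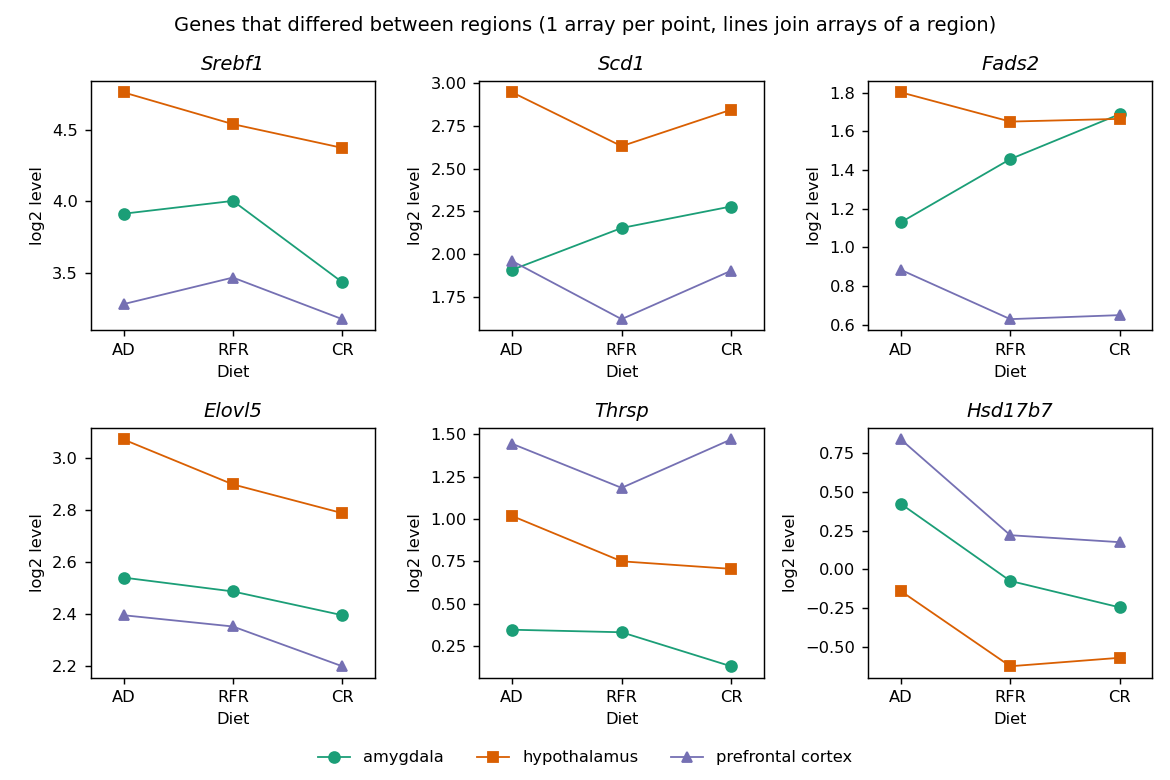
Log2 level, relative to the 75th percentile of each array, of 6 genes by diet on the horizontal axis, with 1 point per array and 1 line per region. Hypothalamus lies on top for Srebf1, Scd1 and Elovl5, prefrontal cortex is lowest for Fads2, and Thrsp and Hsd17b7 are highest in prefrontal cortex on every diet.

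Amygdala against hypothalamus gave 1 gene higher (Hsd17b7, background 13.5%) and 9 lower (26.5%, background 15.9%), of which 6 belonged to the fatty acid arm, 1 (Pmvk) to the sterol arm and 2 (Srebf1 and Insig2) to the regulators. The median difference was -0.36 in the fatty acid arm, -0.07 in the sterol arm and -0.06 over all genes. Against prefrontal cortex, amygdala had 6 genes higher (Fdps, Sqle, Dhcr7, Srebf1, Scd2 and Fads2, background 12.2%) and 2 lower (Hsd17b7 and Thrsp, background 10.2%). Every gene called in any of the 3 comparisons had the same sign in all 3 pools of mice and among the 3 AD arrays, which share slide 1. The calls were made on these same arrays, so the shared signs are no separate evidence. Without the AD hypothalamus array 1 gene, not 9, was lower in amygdala than in hypothalamus, and without the RFR or the CR prefrontal cortex array none was higher in amygdala than in prefrontal cortex. The Insig2 call held in 10 of 20 settings. A second probe of Insig2 read 0.48, 0.10 and 0.57 in the amygdala of AD, RFR and CR mice. In hypothalamus it read 0.63, 0.46 and 0.55, so under CR the amygdala was not the lower region.

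Oligodendrocyte markers also differed between the regions. Limma called 10 of the 10 measured markers (12 listed) higher in hypothalamus than in prefrontal cortex, with a median of 1.25 log2 units, 8 of 10 lower in amygdala than in hypothalamus and 6 of 10 higher in amygdala than in prefrontal cortex. Their summed signal, in multiples of the array's 75th percentile, was 165 to 219 in hypothalamus, 102 to 147 in amygdala and 57.4 to 105 in prefrontal cortex. Of 9 measured astrocyte markers 4 were higher and 1 was lower in hypothalamus than in prefrontal cortex (summed signal 194 to 228 against 171 to 180), and of 10 neuron markers 6 were lower (119 to 132 against 224 to 260). Choroid plexus markers were higher in hypothalamus for 7 of 7 genes (median 3.67, summed signal 7.14 to 8.11 against 0.314 to 0.357) and in amygdala than in prefrontal cortex for 6 of 7. Lower in hypothalamus than in prefrontal cortex were 4 of 8 microglia, 4 of 7 endothelial and 4 of 9 meningeal fibroblast markers, with 1 of the last higher. The shares over all genes were 26.7% higher and 21.3% lower in hypothalamus than in prefrontal cortex. They were 15.9% lower in amygdala than in hypothalamus and 12.2% higher in amygdala than in prefrontal cortex. The part of these cell types in the region differences was not tested, and in pooled tissue fewer cells of a type cannot be told apart from less RNA per cell.

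Neighbouring lipid genes, taken from 3 further lists, were split in direction between hypothalamus and prefrontal cortex. Of all genes fitted, 26.7% were called higher and 21.3% lower in that comparison, and the lists were not tested as sets. Among 13 genes of fatty acid activation, elongation and glycerolipid synthesis 3 were higher and 4 were lower, with Lpin1, a phosphatidate phosphatase, at 1.28 ± 0.11 (adjusted p = 9.3e-05, limma). Of 9 genes of sterol efflux, storage and turnover 4 were higher and 2 were lower. The neuronal cholesterol 24-hydroxylase Cyp46a1 was lower by 1.27 ± 0.27 log2 units, whereas Soat1, which esterifies cholesterol, was higher by 0.81 ± 0.12. Of 6 measured genes of SREBP cleavage and the isoprenoid branches 2 were higher and 1 (Ggps1) was lower.

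The second comparison was between diets. Fitted over the 3 regions, no gene of the pathway passed the threshold: limma called 0 of 34 in CR against AD (background 0.0% in each direction), 0 in RFR against AD (background 0.0158% higher and 0.0% lower) and 0 in CR against RFR (background 0.0% higher and 0.0158% lower). At an unadjusted p under 0.05 the numbers were 9, 5 and 1 of 34, beside 16.5%, 6.15% and 14.8% of all genes. The 9 genes of CR against AD were all lower under CR, 7 of them in the sterol arm (Hsd17b7, Mvd, Fdps, Dhcr7, Sqle, Sc5d and Pmvk), with Srebf1 and Stard4, and none in the fatty acid arm. The lowest adjusted p was 0.169, for Hsd17b7. Every diet has a single pool of mice behind its 3 arrays, which makes these p-values too small, and the CR and RFR differences share the AD array of each region.

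Within a region each diet has 1 array, so the differences that follow are values with no test. Relative to the median of all genes, the sterol arm was lower than AD in each region on both diets. Its median difference under CR was -0.18 in amygdala, -0.20 in hypothalamus and -0.19 in prefrontal cortex, with 12, 12 and 13 of 16 genes lower. Under RFR it was -0.08, -0.13 and -0.19, with 11, 13 and 14 of 16 genes lower, where by construction equally many of all genes lie on either side. In prefrontal cortex the AD and RFR arrays share a slide.

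The fatty acid arm lay nearer to all genes under CR. Its median was then 0.04 in amygdala, -0.09 in hypothalamus and 0.01 in prefrontal cortex, with 4, 8 and 6 of 12 genes lower. Under RFR the values were -0.003, -0.11 and -0.22, with 6, 10 and 9 of 12 genes lower. The sterol median lay below the fatty acid median by 0.23, 0.11 and 0.20 log2 units under CR in amygdala, hypothalamus and prefrontal cortex. Under RFR the gaps were 0.08 and 0.02 in amygdala and hypothalamus, and in prefrontal cortex the fatty acid median was the lower one by 0.03. Between CR and RFR directly, the medians of both arms ranged from -0.05 to 0.06 over the regions. No test of the gap between the arms was made.

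**Figure D3:**
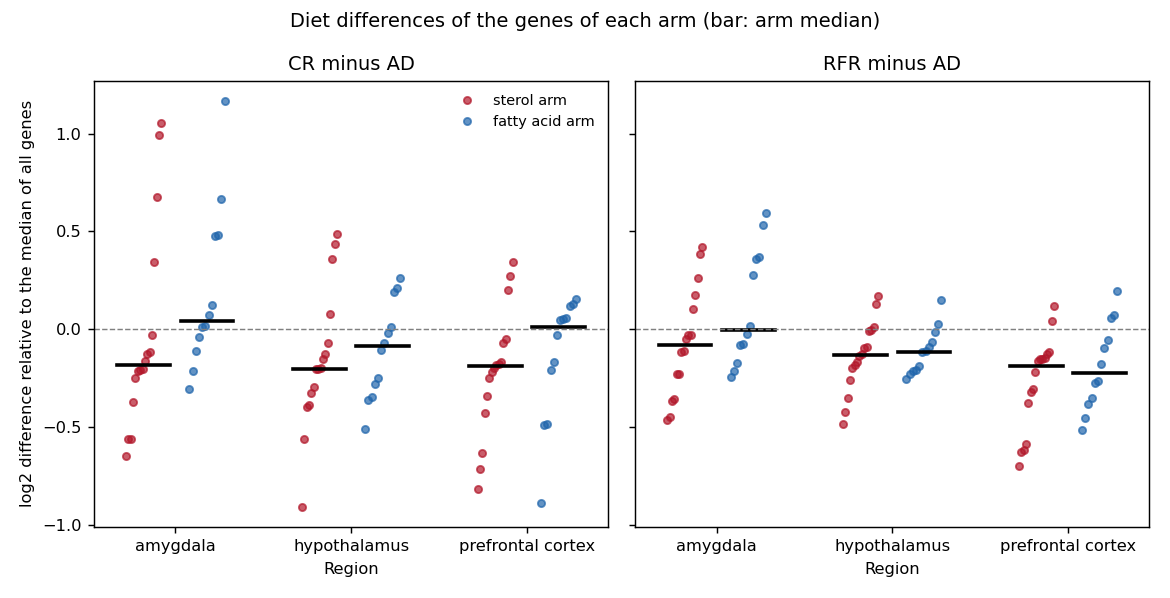
Log2 difference of each gene from the AD array of its region, relative to the median of all genes, for the 16 genes of the sterol arm and the 12 of the fatty acid arm under CR (left) and RFR (right), with the arm median as a bar. The sterol medians lie below 0 in all 6 cases, from -0.20 to -0.08, and the fatty acid medians range from -0.22 to 0.04.

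Genes were also counted by their sign in all 3 regions. Under CR 8 of 16 sterol genes were below the median of all genes in every region (Mvd, Pmvk, Fdps, Sqle, Msmo1, Hsd17b7, Sc5d and Dhcr7) and 0 were above it in every region, where 18.2% of all genes were below and 18.3% above. In the fatty acid arm 1 of 12 was below (Elovl5) and 3 were above (Fasn, Me1 and Scd2). Under RFR 7 of 16 sterol genes were below throughout (Hmgcs1, Mvd, Fdps, Sqle, Msmo1, Hsd17b7 and Sc5d), with 3 of 12 in the fatty acid arm (Acss2, Elovl5 and Scd2), none of the 34 genes above and backgrounds of 13.8% and 13.9%. Both counts use the same 3 AD arrays. They rest on the brightest probe of each gene. In the RFR amygdala the second probes of Hmgcs1, Elovl5 and Acss2 gave the opposite sign, 0.55, 0.41 and 0.05 log2 units from AD. That of Hsd17b7 kept its sign, at -0.64.

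Differences of at least 1.5-fold from AD, on arrays well above background, were few. Under CR amygdala had 3 genes lower (Hsd17b7, Dhcr7 and Tm7sf2, background 8.35%) and 4 higher (Fdft1, Lss, Fads1 and Srebf2, background 8.05%). Hypothalamus had 2 lower (Mvd and Fdft1, background 4.34%) and 0 higher (4.9%), and prefrontal cortex 3 lower (Mvd, Lss and Hsd17b7, background 4.35%) and 0 higher (3.26%). Under RFR amygdala had 1 lower (Stard4, background 3.64%) and 1 higher (Srebf2, 5.15%), and hypothalamus had 0 in either direction (1.73% and 1.32%). Prefrontal cortex, where both arrays are on slide 1, had 3 lower under RFR (Mvd by 0.60, Hsd17b7 by 0.62 and Lss by 0.69 log2 units, background 2.87%) and 0 higher (1.33%). These 3 are the same genes as under CR in that region, compared with the same AD array, and all 3 belong to the sterol arm.

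Mvd, which decarboxylates mevalonate diphosphate, had the largest mean difference under CR. In hypothalamus its level was 1.18 in AD, 0.64 in RFR and 0.25 in CR mice, and in prefrontal cortex it was 1.18, 0.57 and 0.33. In amygdala the levels were 0.93, 0.87 and 0.61. The AD array was the highest and the CR array the lowest in each region. AD exceeded CR 1.92-fold in hypothalamus, 1.79-fold in prefrontal cortex and 1.25-fold in amygdala, and RFR 1.46-fold, 1.52-fold and 1.04-fold. Over the regions the difference was -0.70 ± 0.14 log2 units for CR (limma adjusted p = 0.202) and -0.40 ± 0.14 for RFR (adjusted p = 0.737).

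Hsd17b7, whose levels are given above, was highest in the AD array of each region as well. AD exceeded CR 1.59-fold in amygdala, 1.35-fold in hypothalamus and 1.58-fold in prefrontal cortex, and it exceeded RFR 1.41-fold, 1.40-fold and 1.53-fold. The fitted differences were -0.59 ± 0.10 (limma adjusted p = 0.169) and -0.53 ± 0.10 (adjusted p = 0.470), while CR and RFR differed by -0.05 ± 0.10. The gene's second probe was also lower than AD in every region on both diets, by 0.15 to 0.64 log2 units. Dhcr7 was lower under CR by 0.76 in amygdala, 0.16 in hypothalamus and 0.25 in prefrontal cortex, but its dimmer second probe gave 1.04 in amygdala, the opposite sign, and -0.20 and -0.27 in the other regions.

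The promoters of 4 genes are shown, chosen after the motif matches were seen: Mvd and Hsd17b7 as the sterol genes just described, Hmgcs1 for its sterol element, and Acly as a gene of the fatty acid arm without CCAAT. SREBP binds sterol regulatory elements and acts together with NF-Y, which binds CCAAT, and Sp1, which binds GC boxes. The sequences are the 250 bases before the RefSeq start on GRCm38.p6, 5′ to 3′ on the strand of the gene: Mvd at chr8:122443423-122443672 (minus), Hsd17b7 at chr1:169969206-169969455 (minus), Hmgcs1, the synthase of HMG-CoA, at chr13:119690101-119690350 (plus) and Acly at chr11:100528001-100528250 (minus). Capitals mark every CCAAT box, which reads ATTGG where it lies on the other strand, and in Hmgcs1 also the sterol element TCACCCCAC.
Mvd promoter: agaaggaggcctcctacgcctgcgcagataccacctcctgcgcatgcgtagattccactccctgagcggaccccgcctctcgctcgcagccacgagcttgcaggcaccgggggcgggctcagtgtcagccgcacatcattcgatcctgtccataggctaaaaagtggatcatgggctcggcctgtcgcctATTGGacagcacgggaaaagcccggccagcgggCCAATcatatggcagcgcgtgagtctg
Hsd17b7 promoter: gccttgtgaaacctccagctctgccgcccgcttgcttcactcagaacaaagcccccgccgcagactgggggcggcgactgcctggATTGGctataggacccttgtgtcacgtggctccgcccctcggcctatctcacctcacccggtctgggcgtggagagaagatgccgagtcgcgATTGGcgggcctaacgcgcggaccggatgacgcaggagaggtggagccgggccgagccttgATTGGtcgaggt
Hmgcs1 promoter: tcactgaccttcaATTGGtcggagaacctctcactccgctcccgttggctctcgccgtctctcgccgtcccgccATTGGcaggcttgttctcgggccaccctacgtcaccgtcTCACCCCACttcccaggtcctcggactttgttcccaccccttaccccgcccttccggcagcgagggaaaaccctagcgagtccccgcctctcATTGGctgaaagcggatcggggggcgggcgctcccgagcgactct
Acly promoter: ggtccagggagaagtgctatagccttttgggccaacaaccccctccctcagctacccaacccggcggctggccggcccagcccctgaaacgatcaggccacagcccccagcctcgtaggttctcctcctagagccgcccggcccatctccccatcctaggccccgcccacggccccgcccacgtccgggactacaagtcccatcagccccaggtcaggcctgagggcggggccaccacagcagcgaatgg
Mvd, Hsd17b7 and Hmgcs1 each hold CCAAT on at least 1 strand, and Acly holds none.

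RefSeq promoter entries were matched for 28 of the 35 listed genes (14 of the sterol arm with Idi1, 9 of the fatty acid arm and 5 regulators), and a gene counted if any of its starts had a match on either strand. CCAAT lay in 14 of 14 sterol promoters, 5 of 9 of the fatty acid arm and 4 of 5 regulators, against 40.3% of the 10094 fitted genes with an entry. GGGCGG lay in 13 of 14, 4 of 9 and 5 of 5, against 61.6%. The E-box CACGTG lay in 3 of 14, 1 of 9 and 2 of 5, against 9.74%. The sterol element searched as TCACNCCAC was found in 1 promoter, that of Hmgcs1, 137 bases before the start, against 1.31% of the fitted genes. Other forms of the element and bases outside the window were not searched. The listed genes without an entry were Fdps, Fdft1, Sqle, Stard4, Scd1, Scd2 and Fads1. In the Hmgcs1 window the match to TCACNCCAC overlapped none of the matches to the other motifs. A match describes the letters of the window, and occupancy was not measured.

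In the fatty acid arm Acly, which makes cytosolic acetyl-CoA from citrate for both arms, differed in sign between regions. It read 0.94, 0.65 and 0.40 in the hypothalamus of AD, RFR and CR mice and 0.79, 0.35 and 0.28 in prefrontal cortex, with AD highest and CR lowest in both. In amygdala it read -0.02, 0.48 and 0.36, and there AD was the lowest array. Elovl5, with its levels as above, was lowest under CR in all 3 regions, by 0.14, 0.28 and 0.20 log2 units from AD in amygdala, hypothalamus and prefrontal cortex. Its second probe gave 0.38, 0.01 and 0.10 instead, so the direction depends on the probe. Scd2 was lower under RFR than under AD in the 3 regions, by 0.11, 0.28 and 0.16, while under CR it differed from AD by at most 0.03 (-0.18 ± 0.09 fitted for RFR, limma adjusted p = 0.849).

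Among the regulators, Stard4, which carries cholesterol between membranes, had AD levels of 1.01 in amygdala, 0.79 in hypothalamus and 0.68 in prefrontal cortex. Under RFR it read 0.36, 0.49 and 0.27 and under CR 0.78, 0.35 and 0.40 in the same order. AD was the highest array in each region, and RFR or CR was the lowest depending on the region. The fitted difference was -0.45 ± 0.12 for RFR (limma adjusted p = 0.620) and -0.31 ± 0.12 for CR (adjusted p = 0.286). Of its dimmer probes, 1 gave 0.17 for CR in amygdala and another gave 0.05 in prefrontal cortex, so the sign there depends on the probe.

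Srebf1 was lowest under CR in each region, by 0.48, 0.39 and 0.11 log2 units from AD in amygdala, hypothalamus and prefrontal cortex, and the fitted difference was -0.33 ± 0.12 (limma adjusted p = 0.278). Under RFR it differed from AD by 0.09, -0.22 and 0.19. Srebf2 encodes SREBP-2, the family member that drives sterol genes in particular. Its levels in hypothalamus (-0.16, -0.21 and -0.13 in AD, RFR and CR mice) and prefrontal cortex (0.03, -0.04 and 0.09) spanned little across diets. In amygdala it read -0.69 in AD, 0.07 in RFR and 0.11 in CR mice, so the AD array alone was low. The fitted CR difference of 0.30 ± 0.19 turned to -0.21 with slide as a term. On their brightest probes the Scap and Insig genes differed from AD by at most 0.37 log2 units on both diets in every region. A second probe of Insig1 differed by 0.53 under CR and 0.63 under RFR in amygdala and by -0.56 and -0.53 in hypothalamus.

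4 genes were at least 1.25-fold higher in amygdala and at least 1.25-fold lower in both other regions under CR than under AD. Fdft1, squalene synthase, read 1.82 in AD, 2.05 in RFR and 2.77 in CR amygdala, against 2.72, 2.31 and 2.13 in hypothalamus and 2.35, 1.77 and 1.89 in prefrontal cortex. Lss, lanosterol synthase, read -2.70, -2.35 and -1.82 in amygdala, -2.12, -2.19 and -2.54 in hypothalamus and -2.14, -2.83 and -2.88 in prefrontal cortex. In amygdala AD was the lowest array and CR the highest for both genes, and in the other regions AD was the highest.

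Fads1, the delta-5 desaturase, read 1.46, 1.80 and 2.52 in amygdala, 2.38, 2.20 and 2.0 in hypothalamus and 2.24, 1.87 and 1.72 in prefrontal cortex. Its 2.08-fold excess of CR over AD in amygdala was the one difference of at least 2-fold within a region among the 34 genes on arrays well above background, where 2.22% of all genes were at least 2-fold higher. Acly was the fourth gene, with the levels given above. The pattern, higher in amygdala and lower in both other regions, was shown by 4 of the 33 genes well above background on all arrays. Of the 11234 such genes in all, 2.67% showed it in this direction. The CR amygdala array is alone on slide 3, which leaves diet and slide confounded for that contrast (they cannot be told apart).

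**Figure D4:**
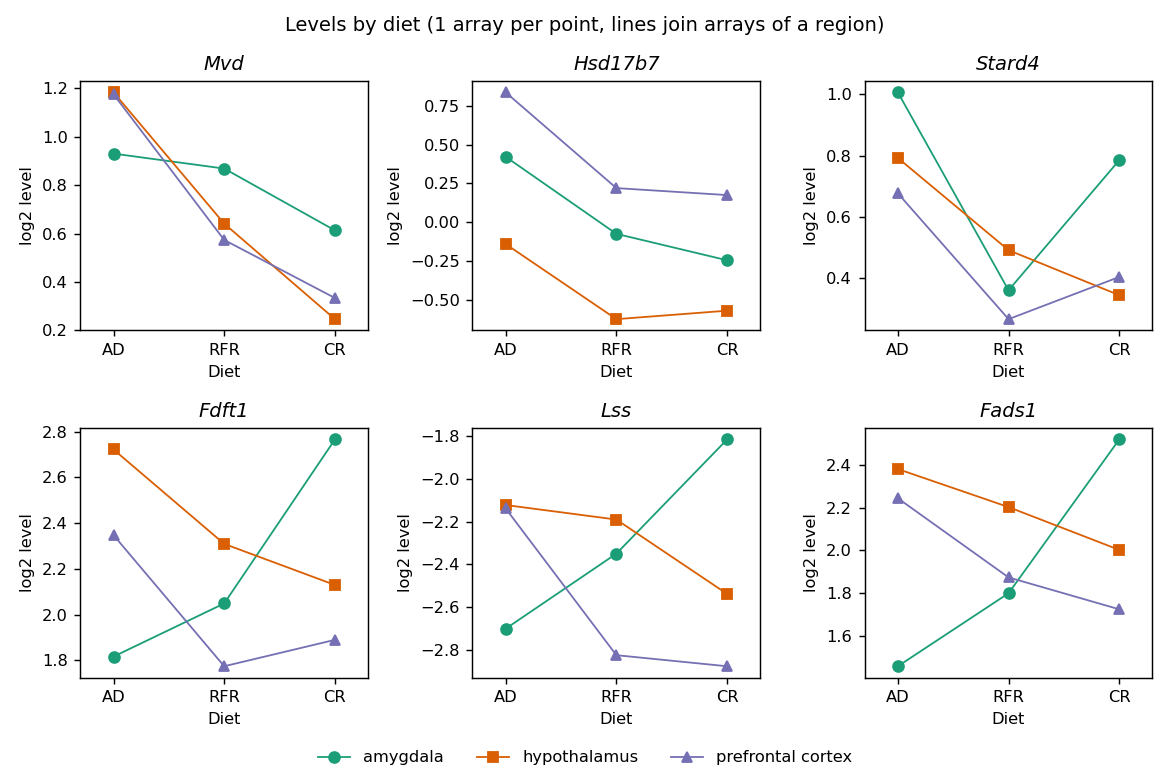
Log2 level of 6 genes by diet on the horizontal axis, with 1 point per array and 1 line per region. Mvd, Hsd17b7 and Stard4 are highest in AD mice in every region, whereas for Fdft1, Lss and Fads1 AD is the lowest diet within amygdala and the highest within each other region.

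The number of genes called between diets depended on the amygdala. Without the AD amygdala array, CR against AD gave 0 genes higher (background 2.91%) and 3 lower by limma (background 2.25%): Mvd (-0.88, adjusted p = 0.034), Hsd17b7 (-0.57, adjusted p = 0.045) and Acly (-0.52, adjusted p = 0.044). Without the whole region it gave 5 lower (Mvd, Hsd17b7, Acly, Fdft1 and Fads1, background 7.16%) and 1 higher (Nsdhl, 0.39, background 7.34%). In the remaining regions all CR arrays are on slide 2 and all AD arrays on slide 1, and in this subset the effects of diet and of slide cannot be told apart.

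Cell type markers varied between the diets too. Relative to all genes, the median of the oligodendrocyte markers under CR was 0.33 in amygdala, -0.06 in hypothalamus and 0.29 in prefrontal cortex. Under RFR it was -0.09, -0.29 and -0.27, with 8 markers lower and 1 higher in prefrontal cortex. Astrocyte markers in prefrontal cortex had medians of -0.19 under CR and -0.14 under RFR, with 8 of 9 lower on each. Choroid plexus markers had a median of 1.51 in the RFR amygdala, with 7 of 7 higher. Under CR the meningeal fibroblast markers had medians of 0.58 in hypothalamus, with 9 of 9 higher, and -0.55 in prefrontal cortex, with 9 of 9 lower, and 7 of 7 endothelial markers were higher in hypothalamus, with a median of 0.45. The part of these cell types in the CR and RFR differences was not tested.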

How the data were processed

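The 9 Cy3 arrays, each labelled from 400 ng of RNA of 4 pooled mice, were read with Agilent Feature Extraction 9.5.1.1, per the file headers. The processed signal the authors deposited is an intensity from which background was subtracted, with no scaling across arrays; the median signals of spots and of local background are deposited intensities too. Quality flags of 0 or 1 (well above background, saturated, outlier) are deposited columns of some other unit. A table deposited by the authors holds ratio values: on each array 99.28% to 99.36% of them lay within 0.01 log2 units of the scanner ratio to the AD array of the region after 1 constant per array.

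Processed signals were put on the log2 scale and centred on the 75th percentile of an array's noncontrol spots, without outlier spots, and replicate spots of 1 probe were averaged. Probes were named through RefSeq accessions (gene table of GRCm38.p6), and the brightest probe on average stood for a gene. Of the 34 genes 17 had more than 1 probe. Limma 3.58.1 in R 4.3.3 fitted region plus diet to the 12625 genes that at least 3 arrays showed well above background and at least 6 gave a value for, leaving 4 residual degrees of freedom, with Benjamini-Hochberg adjustment per contrast at 0.05. Within a region no test was possible with 1 array per diet. The fit was tested on simulated data. The alternatives were normexp background correction with an offset of 50, quantile normalization, the authors' table, other filters and probe rules, other variance settings, slide as a term and leaving out arrays, regions or pools.

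The genes and lists were chosen with earlier results of these data known. Values on every array are given for the 3 genes of each arm, and of the regulators, with the largest mean difference between a diet and AD among genes well above background on all 9 arrays (which leaves out Acaca), for up to 3 genes per region and direction that differed from both other regions, and for any at least 2-fold different within a region. Fdft1, Lss and Acly are given on every array also because their signs differed between regions, and the neighbouring lipid genes and second probes were named after their values were seen. Promoter sequences are from RefSeq. The number of arrays limits the precision.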

Additional observations from a re-analysis of the deposited data

Results flagged for a closer look

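Under CR, 4 genes were at least 1.25-fold higher than AD in amygdala and at least 1.25-fold lower in hypothalamus and prefrontal cortex. The difference between the regions was not tested, since each value rests on 1 array per diet. Fdft1 differed from AD by 0.95 log2 units in amygdala, -0.59 in hypothalamus and -0.46 in prefrontal cortex. Lss differed by 0.89, -0.42 and -0.74 in the same order, and its second probe by 0.84, -0.47 and -0.53. Acly differed by 0.38, -0.54 and -0.51. Fads1 differed by 1.06, -0.38 and -0.52. The second probe of Fdft1 was well above background on 6 arrays only and gave 0.41, 0.02 and -0.07. Under RFR the 4 genes were also above AD in amygdala, by 0.23 (Fdft1), 0.35 (Lss), 0.50 (Acly) and 0.34 (Fads1), on an array of another slide than the CR amygdala but compared with the same AD array.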

How the results depend on the processing

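Of the 34 genes, the calls that held in every one of 20 settings numbered 8 of 15 between hypothalamus and prefrontal cortex, 1 of 10 between amygdala and hypothalamus and 1 of 8 between amygdala and prefrontal cortex. No pairing beyond the pool of mice was possible because the labels give no replicate numbers. The pool of mice is the diet, which is already a term of the fit when regions are compared.

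The number of genes higher in hypothalamus than in prefrontal cortex was 7 without the RFR pool, and the number lower was 1 without the CR or the RFR pool. For amygdala against hypothalamus the number higher was 0 without the AD or the RFR pool, and the number lower was 4 with no filter, 3 with slide as a term, and 4, 2 and 1 without the AD, CR and RFR pools. For amygdala against prefrontal cortex the number higher was 3 with no filter and 0 with slide as a term and without the CR or the RFR pool, and the number lower was 1 with no filter, with slide as a term and without each pool. Fewer arrays were fitted without a pool. In CR against AD, leaving out the amygdala gave 1 higher and 5 lower.

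Leaving out 1 array at a time gave 9 to 17 higher and 1 to 3 lower for hypothalamus against prefrontal cortex, 0 to 2 higher and 1 to 11 lower for amygdala against hypothalamus, 0 to 6 higher and 1 to 4 lower for amygdala against prefrontal cortex, 0 higher and 0 to 3 lower for CR against AD, and 0 for RFR against AD and CR against RFR. For amygdala against hypothalamus the number lower was 1 without the AD hypothalamus, 3 without the RFR hypothalamus, 4 without the CR hypothalamus or the CR prefrontal cortex, and 5 without the RFR amygdala, the CR amygdala or the RFR prefrontal cortex. The number higher was 2 without the AD amygdala and 0 without the AD or the RFR hypothalamus. For amygdala against prefrontal cortex the number higher was 0 without the RFR or CR prefrontal cortex, 1 without the RFR amygdala or the AD prefrontal cortex and 3 without the AD or CR hypothalamus, and the number lower was 4 without the AD amygdala and 1 without any other array. For hypothalamus against prefrontal cortex the number lower was 1 without the CR prefrontal cortex.

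For CR against RFR in prefrontal cortex, normexp correction moved the fatty acid median to 0.16 and the sterol minus fatty acid gap to -0.13. The number of fatty acid genes below all genes in the 3 regions under CR was 2 with normexp or the mean of all probes and 0 with no filter. Under RFR, quantile normalization gave 4 sterol genes and 1 fatty acid gene. Signs turned for Srebf2 in CR against AD with slide as a term (-0.21), and in CR against AD for Dhcr7 in amygdala with the mean of all probes (0.14), for Elovl5 in amygdala with normexp (0.059) and the mean of all probes (0.12) and for Elovl5 in prefrontal cortex with normexp (0.017). The cause of these changes was not tested. Of 14 genes with several probes well above background on all arrays, the probes agreed in sign for 6 to 11, depending on region and contrast. Signs of diet differences can thus depend on the probe, and not only where they are small. In amygdala the 2 probes of Dhcr7 gave -0.76 and 1.04 under CR, and those of Hmgcs1 gave -0.48 and 0.55 under RFR.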
